A study of Canis lupus familiaris with 30 samples.

Results

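CPT1A, UCP2 and COX8A are 3 genes of mitochondrial fuel use, taken here as every non-control probe whose RefSeq transcript belongs to one of them. They are read by 4 of 43603 probes, namely 2 for CPT1A, 1 for UCP2 and 1 for COX8A, and they are 3 of the 25954 genes and unnamed transcripts that were tested. RNA came from peripheral blood mononuclear cells (PBMC), the lymphocytes and monocytes that a density gradient recovers from blood, of adult dogs. Breed and sex are not given in the sources used here. Per the labels 8 dogs ate only a kibble that contains carbohydrate, and 7 only a raw red meat diet high in protein and fat. Blood was taken at week 0, when the diets began, and after 3, 6 and 9 weeks, so the 8 groups are kibble and meat at each of those weeks.

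Samples were compared in pairs on 30 arrays, 1 labelled with Cy3 and the other with Cy5. The diets were compared on 3 arrays each for weeks 0 and 3 and on 4 arrays each for weeks 6 and 9. Within each diet 4 arrays set week 9 against week 0 and 4 set week 6 against week 3. A group thus has 7 or 8 channels, more than the 6 biological replicates that the labels name. The sources used here do not tie dogs to arrays, so p-values measure the spread between arrays and may be too small for dogs. The diet arrays of each week filled a slide of their own, so week and slide cannot be told apart there. Between 19423 and 43411 probes stood well above background in a channel, and 2 arrays stood apart in that number: kibble week 0 against week 9 replicate 1 (lowest) and meat week 9 against week 0 replicate 1 (highest). Of 41 marker genes of blood cells, 37 were well above background in all 60 channels, among them CD4 and CD28 of T cells, MS4A1 of B cells and CD163 of monocytes. Genes of platelets and neutrophils were detected too.

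The 3 genes act at different steps of fuel use. CPT1A is the liver-type carnitine palmitoyltransferase of the outer mitochondrial membrane, which joins long-chain fatty acids to carnitine and sets the rate at which they enter the mitochondrion for oxidation. It is inhibited by malonyl-CoA, which is made when carbohydrate is plentiful, and its gene is a textbook target of PPAR receptors, which sense fatty acids. UCP2 is an inner membrane carrier of the uncoupling protein family, abundant in immune cells and linked to fatty acid use and to limiting reactive oxygen species. COX8A is a small nuclear-encoded subunit of cytochrome c oxidase (complex IV), the last enzyme of the respiratory chain.

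Each probe of the 3 genes stood well above background in 60 of 60 channels. Values below are log2 ratios between the samples of 1 array, with the dye difference of the probe removed, so that 0 means equal and -1 would mean a halving. That correction matters for these genes. Cy5 read lower than Cy3 for CPT1A (log2 -0.19, adjusted p = 0.0105 in limma) and for COX8A (-0.16, adjusted p = 2.64e-05), and higher for UCP2 (0.20, adjusted p = 0.0017). The median size of this dye term over all genes was 0.049. The within-diet arrays have a single dye order per diet, so there the correction rests on the whole fit. An array result is called when its limma p-value, adjusted by Benjamini-Hochberg over all 25954 genes and transcripts, is under 0.05.

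During the feeding period CPT1A was lower in meat-fed than in kibble-fed dogs. The brighter of its 2 probes read -0.26, -0.36 and -0.85 on the 3 arrays of week 3. It read 0.15, -0.28, -0.42 and -0.55 at week 6. At week 9 the 4 arrays gave -0.15, -0.48, -0.40 and -0.33. Meat was thus the lower sample on 10 of 11 arrays with the dye correction and on 9 of 11 without it. The week 6 array at 0.15 was above 0 either way. As a mean over weeks 3, 6 and 9 CPT1A was 1.29-fold lower in meat-fed dogs (log2 -0.36 ± 0.07 SE, 95% interval -0.52 to -0.21, adjusted p = 0.00166 in limma). In that comparison 14.9% of all genes and transcripts were called. By week, the difference was -0.51 ± 0.12 at week 3 (adjusted p = 0.0152, 6.07% of all called), -0.26 ± 0.11 at week 6 (adjusted p = 0.199, 6.23% called) and -0.32 ± 0.11 at week 9 (adjusted p = 0.266, 0.593% called). Of these, week 3 passed. Median centring in place of loess ended the call for the fed weeks (-0.29, adjusted p = 0.101). The week 3 call also rested on a single array: without meat against kibble replicate 2 (Cy3 meat) it was -0.39 (adjusted p = 0.186), and on the week 3 slide alone -0.44 (adjusted p = 0.238).

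At week 0, the start of the experiment, the 3 arrays of CPT1A read -0.34, 0.29 and 0.07. They fell on both sides of 0, and the fitted difference was -0.03 ± 0.12 (95% interval -0.28 to 0.23, adjusted p = 0.992), where 0.312% of all genes and transcripts were called. The difference in the fed weeks was therefore set against that of week 0 directly. It was more negative by log2 -0.34 ± 0.13, which did not pass (adjusted p = 0.446 in limma). In that test 0% of genes and transcripts were called, with 2348 at an unadjusted p under 0.05. A difference between the fed weeks and week 0 is thus not shown for CPT1A.

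The second, dimmer CPT1A probe is a separate reading of the same transcript. On the arrays of week 3 it gave -0.39, -0.23 and -0.05. It gave -0.01, -0.20, -0.16 and -0.13 at week 6. It gave -0.17, -0.34, -0.04 and -0.29 at week 9. Meat was lower on 11 of 11 arrays after dye correction and on 10 of 11 before it. In a fit over all 31698 probes the mean over the fed weeks was -0.19 ± 0.05 (adjusted p = 0.00837, where 15.7% of probes were called). Median centring ended this call as well (-0.15, adjusted p = 0.251). At week 3 alone the dimmer probe did not pass (-0.20 ± 0.08, adjusted p = 0.126, 6.07% of probes called). At week 0 it read -0.44, -0.04 and 0.18, with a fitted -0.10 ± 0.08. Over the 30 arrays the ratios of both probes before dye correction had the same sign on 22. The Pearson correlation of these uncorrected ratios was 0.40, a description over arrays that share samples.

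**Figure D1:**
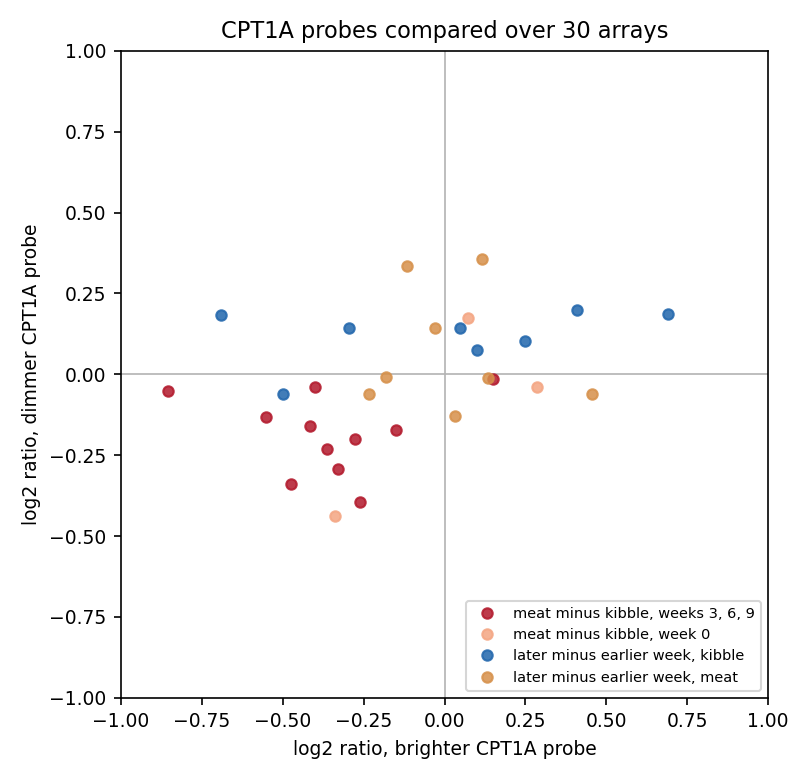
Dye-corrected log2 ratios of the brighter CPT1A probe (horizontal axis) and the dimmer one (vertical axis), with 1 point for each of the 30 arrays, coloured by the kind of comparison. The points of meat minus kibble at weeks 3, 6 and 9 lie below 0 on the vertical axis on 11 of 11 arrays and left of 0 on 10 of 11, and the 4 kibble arrays of week 9 minus week 0 lie above 0 on both axes.

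Over time CPT1A rose in kibble-fed dogs from week 0 to week 9. The 4 kibble arrays read 0.05, 0.41, 0.25 and 0.69, all above 0. The brighter probe was 1.29-fold higher at week 9 (log2 0.37 ± 0.11, 95% interval 0.14 to 0.61, adjusted p = 0.0276 in limma), a comparison in which 13.6% of all genes and transcripts were called. Before dye correction 3 of the 4 arrays were above 0. The dimmer probe read 0.14, 0.20, 0.10 and 0.19, which is a smaller change in the same direction (0.16 ± 0.07, adjusted p = 0.151, 15.1% of probes called). The call for the brighter probe ended without kibble replicate 4 (0.30, adjusted p = 0.130) or replicate 2 (0.36, adjusted p = 0.0763), without the dye term (0.29, adjusted p = 0.166), and with median centring (0.12, adjusted p = 0.578), scaling between arrays (0.32, adjusted p = 0.127) or the 4 arrays alone (0.16, adjusted p = 0.346).

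In meat-fed dogs the same interval gave 0.12, -0.18, 0.03 and 0.46 for CPT1A, with arrays on both sides of 0. The fitted change was 0.08 ± 0.11 (95% interval -0.15 to 0.32, adjusted p = 0.755), where 7.99% of all genes and transcripts were called. The change in meat-fed dogs minus that in kibble-fed dogs was -0.29 ± 0.14 (adjusted p = 0.632 in limma). In that test 0% were called and 2039 genes and transcripts had an unadjusted p under 0.05, so the diets are not shown to differ in it.

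From week 3 to week 6 the kibble arrays read -0.50, -0.69, 0.10 and -0.30 for the brighter CPT1A probe. The fitted change of -0.33 ± 0.11 did not pass (adjusted p = 0.158, 0.0347% of all called). The first 2 of these arrays lay on 1 slide, with a mean of -0.60, and the others on a second slide, with a mean of -0.10. The dimmer probe had the opposite sign (0.07 ± 0.07). In meat-fed dogs the values were 0.13, -0.03, -0.23 and -0.12 for the brighter probe, with a fitted -0.08 ± 0.11 (adjusted p = 0.769, 2.25% of all called). The diets differed in this change by 0.25 ± 0.14 (adjusted p = 0.579, 0% called, 2523 at an unadjusted p under 0.05).

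UCP2 fell with time in kibble-fed dogs. Between week 0 and week 9 the 4 kibble arrays read -0.27, -0.12, -0.34 and -0.50, all below 0. The gene was 1.25-fold lower at week 9 (log2 -0.33 ± 0.10, 95% interval -0.53 to -0.13, adjusted p = 0.0255 in limma). Before dye correction the arrays read -0.06, 0.08, -0.14 and -0.29, with a mean of -0.10. Without the dye term the change was -0.23 (adjusted p = 0.243), and on the 4 arrays alone it was -0.10 (adjusted p = 0.387). The call also ended without kibble replicate 4 (-0.29, adjusted p = 0.0993) or replicate 3 (-0.32, adjusted p = 0.0543), and without both arrays that stand apart (-0.33, adjusted p = 0.0522).

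In meat-fed dogs UCP2 read -0.31, -0.23, -0.46 and 0.11 over the same weeks. Lower readings on 3 of 4 arrays gave a fitted -0.20 ± 0.10 that did not pass (adjusted p = 0.236). The change in meat-fed minus that in kibble-fed dogs was 0.13 ± 0.12 (95% interval -0.12 to 0.37, adjusted p = 0.833 in limma), so a difference between the diets is not shown. From week 3 to week 6 the change was -0.14 ± 0.10 on kibble and -0.06 ± 0.10 on meat, neither called (adjusted p = 0.472 and 0.787).

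Between the diets UCP2 read lower in meat-fed dogs on most arrays, at week 0 as well. The 3 arrays of week 0 gave -0.37, -0.38 and -0.02. Week 3 gave 0.16, -0.29 and -0.60. Week 6 gave 0.02, -0.23, -0.17 and -0.42, and week 9 gave 0.29, -0.39, -0.21 and -0.02. The fitted differences were -0.23 ± 0.11, -0.26 ± 0.11, -0.18 ± 0.10 and -0.10 ± 0.10 in order of week, and none of these 4 passed (adjusted p = 0.527, 0.138, 0.316 and 0.782 in limma). The mean over the fed weeks, -0.18 ± 0.06, missed the threshold (adjusted p = 0.0546). It differed from week 0 by 0.05 ± 0.12 (95% interval -0.19 to 0.28). Without the first week 3 array, the one at 0.16 (Cy3 kibble), the fed-week mean was -0.25 (adjusted p = 0.0139), and it passed without each of 4 other arrays too.

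COX8A was lower at week 9 than at week 0 on both diets. On kibble the 4 arrays read -0.15, -0.09, -0.32 and -0.24. On meat they read -0.24, -0.28, -0.12 and -0.04, so that all 8 arrays lay below 0. The gene was 1.14-fold lower on kibble (log2 -0.19 ± 0.05, 95% interval -0.30 to -0.08, adjusted p = 0.0204 in limma) and 1.13-fold lower on meat (-0.18 ± 0.05, 95% interval -0.29 to -0.07, adjusted p = 0.0387). The change in meat-fed minus that in kibble-fed dogs was 0.01 ± 0.07, with a 95% interval of -0.13 to 0.15. Before dye correction the means of the arrays were -0.37 on kibble and -0.01 on meat, and on meat only 2 of 4 arrays were below 0. The meat call therefore rests on the dye term, without which the value was -0.11 (adjusted p = 0.542). The meat call ended when any of 8 single arrays was left out (adjusted p = 0.0518 to 0.171) and without both arrays that stand apart (-0.17, adjusted p = 0.077), and the kibble call without kibble replicate 3 (-0.16, adjusted p = 0.0801) or 4 (-0.18, adjusted p = 0.0722).

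Between the diets COX8A differed little. It read 0.07, 0.19 and 0.03 at week 0 and -0.02, -0.21 and -0.13 at week 3. It read -0.06, -0.13, 0.07 and 0.14 at week 6 and 0.27, 0.02, 0.11 and -0.09 at week 9. The mean over the fed weeks was -0.01 ± 0.04, with a 95% interval of -0.08 to 0.07 (adjusted p = 0.931 in limma), the narrowest interval of the 3 genes. From week 3 to week 6 COX8A read -0.16, -0.31, -0.25 and 0.00 on kibble (-0.18 ± 0.05, adjusted p = 0.128) and 0.12, -0.15, -0.14 and -0.02 on meat (-0.05 ± 0.05, adjusted p = 0.669).

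**Figure D2:**
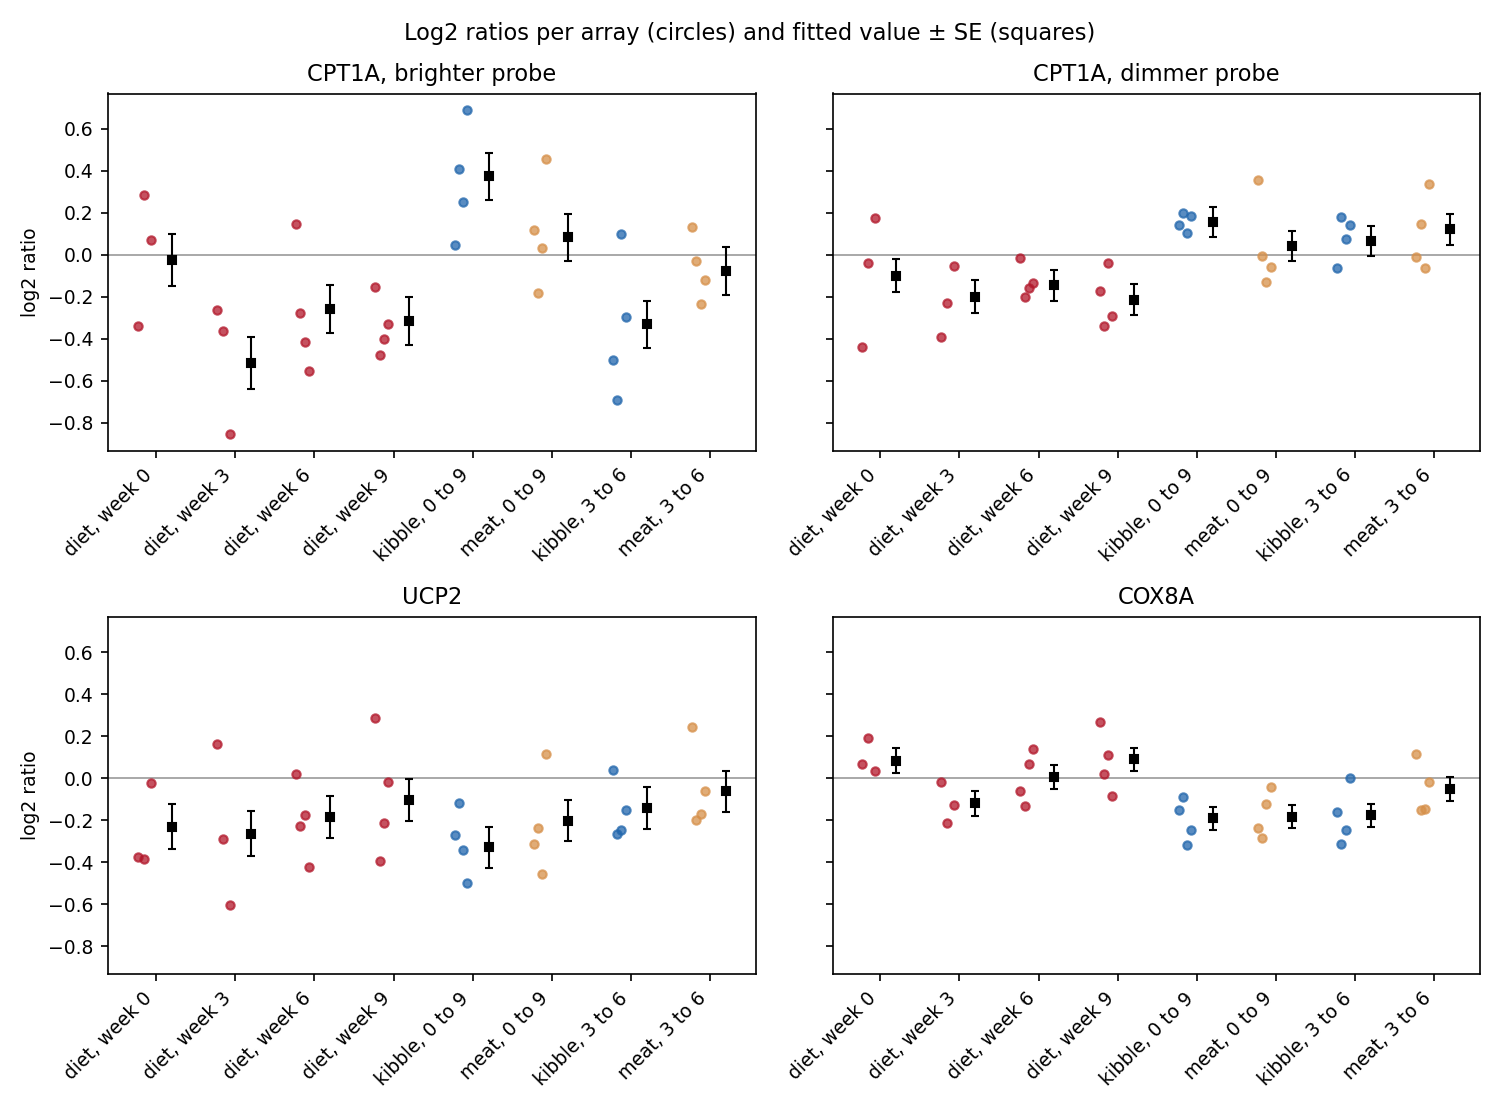
Log2 ratio of every array (circles, dye-corrected) and the fitted value with its SE (squares) for the 2 CPT1A probes, UCP2 and COX8A. Each panel shows meat minus kibble at weeks 0, 3, 6 and 9 (red), and later minus earlier week on kibble (blue) and meat (orange). CPT1A lies below 0 for meat minus kibble on 10 of 11 fed-week arrays of the brighter probe, and COX8A lies below 0 on all 8 arrays of week 9 minus week 0.

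Levels in single channels show how far the groups overlap. They are log2 intensities normalised within and between arrays, but without the dye correction used for the ratios. The groups did not share Cy3 and Cy5 evenly. Small gaps between groups therefore cannot be told apart from the dye difference of a probe. Each probe is read only against itself, and weeks 0 and 9 lay on other slides than weeks 3 and 6 for the within-diet arrays. For the brighter CPT1A probe the groups ran from kibble week 3 (9.38 ± 0.26 SD, n = 7) through kibble week 9 (9.17 ± 0.23, n = 8), week 0 (9.09 ± 0.31, n = 7) and week 6 (8.93 ± 0.23, n = 8). The meat groups followed: week 9 (8.72 ± 0.43, n = 8), week 0 (8.72 ± 0.64, n = 7), week 3 (8.71 ± 0.34, n = 7) and week 6 (8.70 ± 0.17, n = 8). Without the 2 arrays that stand apart, meat week 0 was at 8.93 ± 0.34 (n = 6), level with kibble week 6, so the place of meat week 0 in this order rests on 1 array. Neighbours in the order differed by at most 0.21, less than the SD of either group beside that gap. In kibble week 3 the channels ran from 9.12 to 9.91 with a median of 9.39, and in meat week 3 from 8.21 to 9.21 with a median of 8.79, so the 2 groups overlapped. The dimmer probe gave another order, with kibble week 3 highest (8.27 ± 0.16, n = 7), kibble week 9 sixth (7.92 ± 0.36, n = 8) and meat week 9 lowest (7.46 ± 0.33, n = 8).

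For UCP2 the order was kibble week 0 (10.92 ± 0.31 SD, n = 7), kibble week 9 (10.88 ± 0.17, n = 8) and meat week 0 (10.74 ± 0.44, n = 7). Next came kibble week 6 (10.64 ± 0.21, n = 8), meat week 9 (10.63 ± 0.34, n = 8), kibble week 3 (10.60 ± 0.29, n = 7), meat week 3 (10.43 ± 0.39, n = 7) and meat week 6 (10.35 ± 0.15, n = 8). The means of weeks 0 and 9 stood above those of weeks 3 and 6 within each diet, but these week pairs share no within-diet array, and their difference was not tested. Neighbouring means differed by at most 0.18, less than the SD of either group at that gap.

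COX8A varied least, over 0.35 between the highest and the lowest group mean. Its order was kibble week 0 (13.47 ± 0.18 SD, n = 7), meat week 0 (13.42 ± 0.13, n = 7), meat week 9 (13.38 ± 0.12, n = 8) and meat week 6 (13.28 ± 0.12, n = 8). Kibble week 3 (13.26 ± 0.17, n = 7), kibble week 9 (13.26 ± 0.14, n = 8), meat week 3 (13.15 ± 0.15, n = 7) and kibble week 6 (13.12 ± 0.20, n = 8) followed. Both week 0 groups were highest. Neighbours were at most 0.11 apart, which is within their SD.

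**Figure D3:**
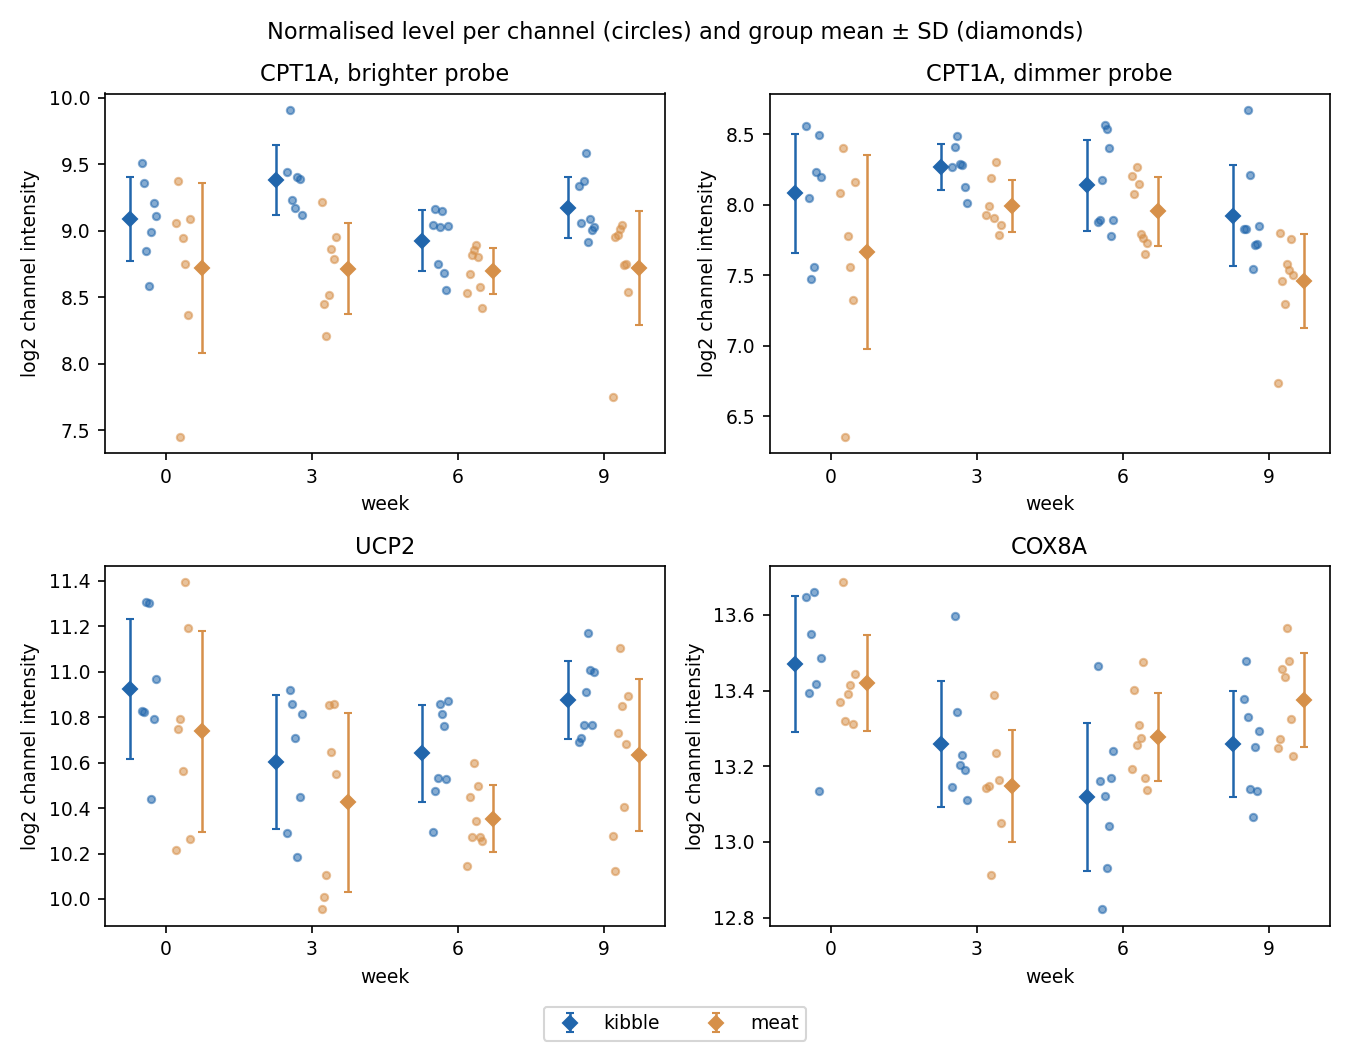
Normalised log2 intensity of each channel (circles) and the group mean with its SD (diamonds) by week for kibble (blue) and meat (orange), in panels with separate vertical axes. For the brighter CPT1A probe the kibble means (8.93 to 9.38) stand above the meat means (8.70 to 8.72) at all 4 weeks, and the circles of both diets overlap. Intensities are not dye-corrected. Without the 2 arrays that stand apart the week 0 means were 9.02 on kibble and 8.93 on meat. The fitted, dye-corrected difference at week 0 was -0.03.

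The other genes of fuel use were taken from 7 lists, of which 17 genes beside the 3 were tested on this array, so the lists are thinly covered. Over the fed weeks 3 of the 17 differed between the diets, a share close to the 14.9% of all genes and transcripts (1 higher and 2 lower in meat-fed dogs, with a median of 0.02 against 0.00 over all genes and transcripts). Of fatty acid oxidation only CPT1A and ETFDH, which passes electrons from fatty acid oxidation to the respiratory chain, were tested of 43 genes, and ETFDH was at 0.09 and not called. Of 30 genes of fatty acid sensing and PPAR targets 4 were tested, and 2 were lower. PPARG, itself a fatty acid receptor, was at -0.38 ± 0.07 (adjusted p = 0.000602 in limma), and CAT, the peroxide-removing enzyme catalase, at -0.35 ± 0.08 (adjusted p = 0.00251). Both were called at weeks 3 and 6 too: PPARG at -0.43 and -0.39, CAT at -0.48 and -0.47. Of 14 other settings, week 3 was called under 8 for PPARG and 9 for CAT (adjusted p up to 0.400 and 0.172), and week 6 under 10 for each. PPARG kept its fed-week call under each of 14 other settings, and CAT lost it under median centring and on the arrays of the groups alone.

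Of pyruvate entry and the citrate cycle 2 of 29 genes were tested. LDHB, the lactate dehydrogenase subunit common in heart and lymphocytes, was higher in meat-fed dogs (0.37 ± 0.08, adjusted p = 0.00279 in limma), a call that median centring ended (adjusted p = 0.069). Of malonyl-CoA and fatty acid synthesis, SREBF1, a regulator of lipid synthesis, was the only 1 of 22 tested, and it was at -0.07 and not called. Of 22 uncoupling proteins and inner membrane carriers 6 were tested. UCP2 fell on kibble from week 0 to 9, and the other 5 (UCP1, UCP3, SLC25A14, SLC25A27 and VDAC3) were called in none of the 12 comparisons. The share of all genes and transcripts called in these comparisons ran from 0% to 14.9%. UCP1 was above background in only 9 of 60 channels.

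Of complex IV 3 of 30 genes were tested. COX8A was called lower at week 9 than at week 0 on both diets, and the meat result stayed the same under only 6 of 14 other settings. COX17, a copper carrier for the complex, and CYCS, its substrate cytochrome c, were called in none of the 12 comparisons. In these, 0% to 14.9% of all genes and transcripts were called. Of the other respiratory complexes 3 of 79 genes were tested. SDHB, the iron-sulphur subunit of complex II, fell on kibble from week 0 to 9 (-0.11 ± 0.04, adjusted p = 0.0368 in limma), a call lost under 7 of 14 other settings, among them leaving out the 2 arrays that stand apart (-0.10, adjusted p = 0.0969). NDUFS8 of complex I and ATP5F1A of complex V were called in none of the 12 comparisons, in which 0% to 14.9% of all were called. Among the 17 genes SDHB was thus the only gene called for week 9 against week 0 on kibble, and 0 of 17 were called on meat, against 13.6% and 7.99% of all genes and transcripts.

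**Figure D4:**
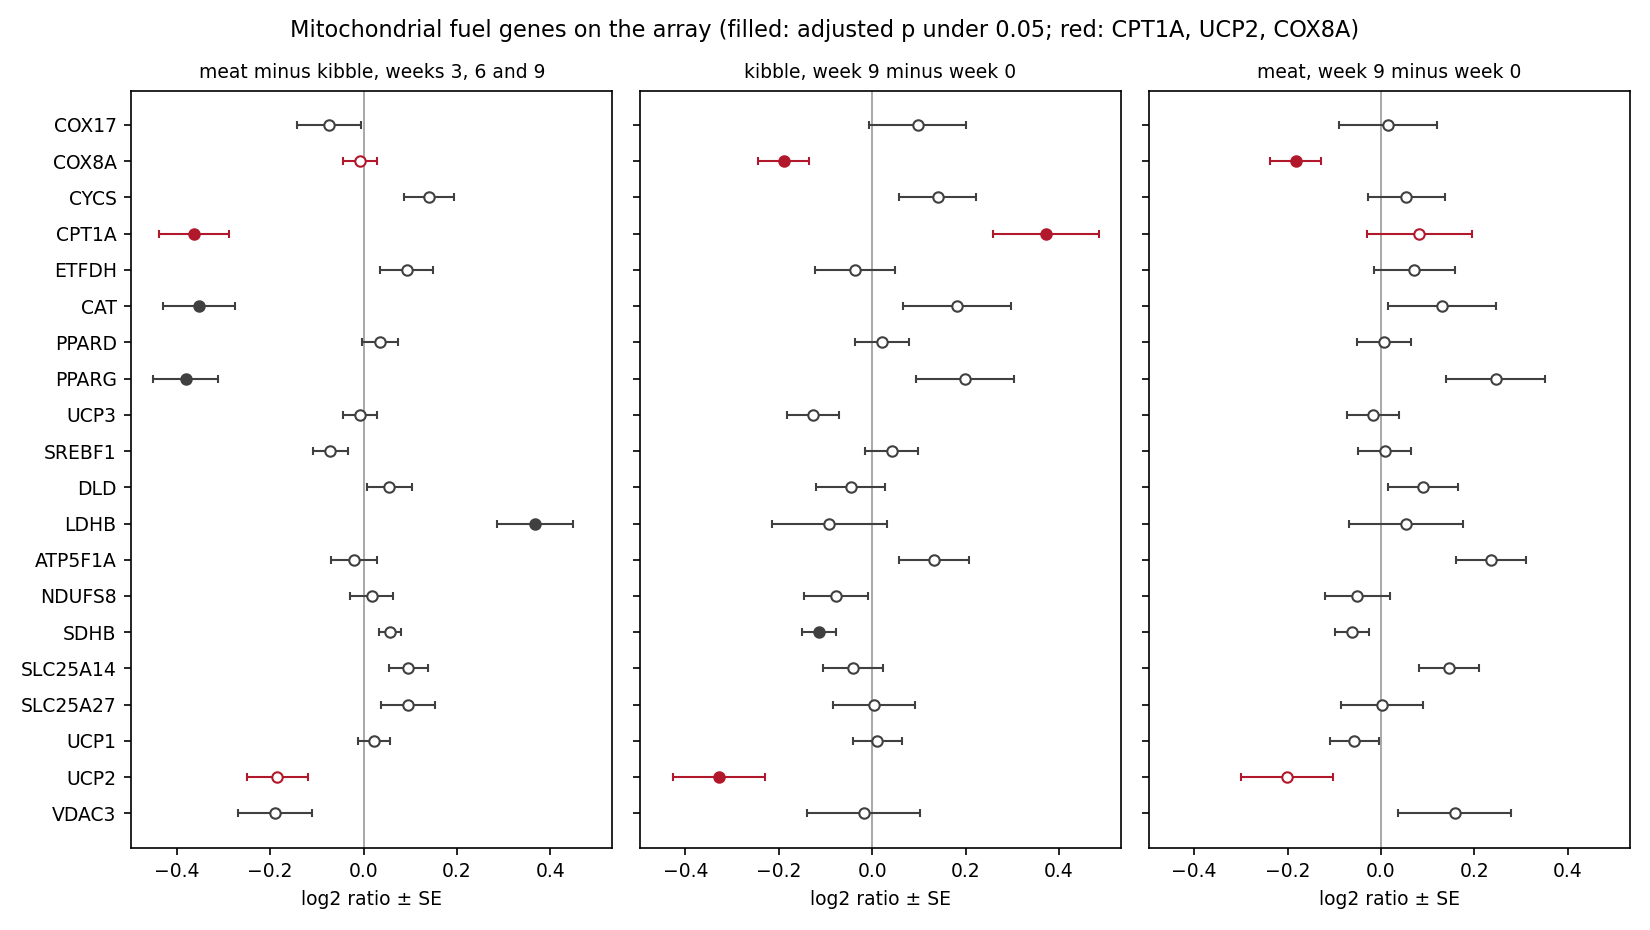
Fitted log2 ratios with their SE of the 20 fuel genes tested, in 3 comparisons: meat minus kibble over weeks 3, 6 and 9, and week 9 minus week 0 on kibble and on meat. Filled circles passed an adjusted p of 0.05 and red marks CPT1A, UCP2 and COX8A, with CPT1A, CAT and PPARG lower and LDHB higher for meat in the left panel.

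The named genes whose ratios followed each of the 3 most closely were found among 1073 by Pearson correlation over the 30 arrays, which share samples and slides. For CPT1A they were YBX3, a Y-box nucleic acid binding protein (r = 0.75), CX3CR1, the fractalkine receptor of monocytes and cytotoxic lymphocytes (0.74), and RHOB, a small GTPase (0.71), against a median of 0.03 over all named genes. All 3 were lower in meat-fed dogs over the fed weeks, where 14.9% of all genes and transcripts were called: YBX3 at -0.63 ± 0.07, CX3CR1 at -0.52 ± 0.10 and RHOB at -0.29 ± 0.05 (adjusted p = 9.97e-07, 0.00103 and 0.000213 in limma). RHOB lost this call under median centring (adjusted p = 0.0848). These genes and those below were chosen by correlation over the same arrays, so a shared direction follows in part from the choice. For UCP2 they included RAB10, a GTPase of vesicle traffic (0.69), and GPX1, a glutathione peroxidase (0.68). RAB10 was not called in any comparison (-0.15 ± 0.06 on kibble from week 0 to 9, adjusted p = 0.128 in limma). GPX1 fell from week 0 to 9 on kibble (-0.59 ± 0.12, adjusted p = 0.0018, 13.6% of all called) and on meat (-0.44 ± 0.12, adjusted p = 0.0243 in limma, 7.99% called). The meat call held under 9 of 14 other settings (adjusted p up to 0.224) and was lost without the 2 arrays that stand apart (-0.37, adjusted p = 0.0692). For COX8A they included NHLRC1, a ubiquitin ligase (0.68), and BIRC5, a protein of dividing cells (0.67). BIRC5 was not called in any comparison (-0.45 ± 0.17 on kibble from week 0 to 9, adjusted p = 0.0878 in limma). NHLRC1 fell on kibble from week 0 to 9 (-0.36 ± 0.09, adjusted p = 0.00818 in limma, 13.6% of all called), a call that held under 11 of 14 other settings (-0.64 to -0.15, adjusted p up to 0.358). Among themselves UCP2 and COX8A correlated at 0.52, CPT1A and UCP2 at 0.33 and CPT1A and COX8A at 0.07.

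PBMC are a mixture, and in such bulk samples fewer cells of a type and less RNA per cell cannot be told apart. Over the fed weeks, when CPT1A was lower in meat-fed dogs, 6 of 7 platelet markers, 5 of 8 of cytotoxic T and NK cells, 4 of 7 of monocytes and 4 of 6 of neutrophils were lower too, and 0 of them higher, against 14.9% of all genes and transcripts called. Their median log2 differences were -0.79, -0.29, -0.46 and -0.37. At week 0 the medians of the same lists were -0.61, -0.01, -0.27 and -0.36, with 7 of 7 platelet markers below 0 and 1 of 6 neutrophil markers called lower as the only call among them. For the fed weeks minus week 0, 0 markers of these lists were called, in a test that called 0% of all genes and transcripts. The medians there were -0.28, -0.26, -0.16 and -0.27, with 7 of 7, 8 of 8, 6 of 7 and 4 of 6 markers below 0. For the fed weeks themselves, median centring left the platelet count of lower calls at 6 and the others at 2 each. Summed intensities of markers carry no dye correction, and the diets did not share Cy3 and Cy5 evenly. The summed intensity of the platelet markers ran from 33340 to 87111 in the 23 kibble channels and from 14161 to 48636 in the 23 meat channels. That of the cytotoxic markers ran from 13381 to 61392 on kibble and from 8995 to 56709 on meat, and that of the monocyte markers from 35036 to 96235 and from 23873 to 145651. The neutrophil markers ran from 24433 to 107204 and from 19481 to 32396. Over the 30 arrays the ratios of CPT1A correlated at 0.63 with the mean of the cytotoxic markers, 0.55 with platelets, 0.37 with monocytes, 0.31 with neutrophils and -0.38 with T cells. T cell markers were 1 of 2 higher (CD28), B cell markers 0 of 2 called, basophil, mast cell and eosinophil markers 1 of 5 higher and 1 lower, and red cell markers 1 of 4 higher. Their part in the CPT1A result was not tested.

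From week 0 to 9 UCP2 was called lower on kibble and COX8A on both diets. Red cell markers were called lower in that interval too, 3 of 4 on kibble and 2 of 4 on meat. Their medians were -0.40 and -0.30, and 13.6% and 7.99% of all genes and transcripts were called. EPB41 of the red cell skeleton was at -0.87 and -0.72, and SLC4A1, the anion exchanger of red cells, was above background in only 17 of 60 channels. Summed intensities here are again not dye-corrected, and the within-diet arrays have a single dye order per diet. The summed red cell intensity ran from 2872 to 6076 on kibble at week 0 and from 1935 to 2580 at week 9. On meat it ran from 2784 to 4113 and from 2165 to 3310. Platelet markers rose, 4 of 7 on kibble and 3 of 7 on meat, with medians of 0.69 and 0.78. Their summed intensity ran from 21728 to 26914 at week 0 and from 34043 to 87111 at week 9 on kibble. On meat it ran from 14484 to 22650 and from 23751 to 35704. Median centring left 1 and 3 of 7 platelet markers called, and scaling between arrays 3 and 0. The 2 T cell markers had a median of -0.48 on kibble, with 2 of 2 below 0 and 0 called. On meat only 1 of 2 was below 0, namely CD4, which was called lower (-0.90, adjusted p = 0.0429 in limma). The median of -0.44 on meat thus lies between 2 genes of opposite sign. CD4 was below 0 on 4 of 4 arrays of each diet. The mean of the T cell markers correlated at 0.40 with COX8A and 0.08 with UCP2. The correlation with the mean of the red cell markers was 0.53 for UCP2 and 0.59 for COX8A. The part of these cells in the changes of CPT1A, UCP2 and COX8A over time was not tested.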

How the data were processed

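Dual-colour Agilent arrays of dog PBMC RNA (200 ng per sample, per the labels) were read from 30 scanner files. Per the file headers these give median spot intensity and local background in Cy3 and Cy5. The authors also deposited log2 ratios in a series matrix. Agilent Feature Extraction 10.10.1.1 and limma are named in the submitters' processing notes. The deposited log2 ratios correlated positively with those computed here (r 0.824 to 0.991 per array), so they run as Cy5 over Cy3. Their array medians lay near 0.

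From the scanner files, normexp background correction (offset 50, median signal, since no mean signal was in the files), loess within arrays and removal of 979 outlier spots gave log2 ratios. A probe entered the tests if 7 or more of 60 channels stood well above background (31698 did), and the brightest one stood for its gene or accession. limma 3.58.1 in R 4.3.3 (files read by data.table, version 1.17.8) fitted group and dye terms (two-sided, Benjamini-Hochberg within a comparison). Figures used matplotlib 3.10.9. The code was tested on simulated data. Levels used Aquantile. Depth does not apply to arrays, and their number limits the precision.

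The genes, lists and tests were chosen with earlier results of these data known. Named are the 3 genes, up to 4 called genes of each list and the 3 most correlated genes of each, some of which are not reported here. Alternatives were other background, normalisation, filter, dye, slide, scan, replicate and probe settings, the deposited values, and leaving out arrays.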

Additional observations from a re-analysis of the deposited data

Results flagged for a closer look

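Of 56 groups of 4 to 8 readings checked for a reading far from the rest, 4 held one, and chance gives about 1 in 20. Both CPT1A probes were low in the same channel, the week 9 sample of the array meat week 9 against week 0 replicate 1, at 7.75 for the brighter probe and 6.74 for the dimmer one. The other channel of that array, meat week 0, read lower still, at 7.45 and 6.35, without standing apart from its own group by this measure. That array is one of the 2 that stand apart in the number of probes above background. The brighter CPT1A probe was high, at 9.91, in the week 3 sample of kibble week 3 against week 6 replicate 2. COX8A was high, at 13.7, in the meat week 0 sample of the diet array with meat in Cy3, replicate 2. These are log2 channel levels without dye correction.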

How the results depend on the processing

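Over the fed weeks CPT1A kept its lower call for meat under 13 of 14 alternative settings and without each of the 30 arrays (-0.41 to -0.32). Of the recomputed values of the 3 genes 1482 kept direction and side of the threshold, 55 changed sign, 40 lost and 7 gained a call. The cause was not tested. The list below names calls that ended or began, with adjusted p from limma, and uncalled values that changed sign.

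Median centring gave CPT1A -0.29 over the fed weeks (0.101), -0.54 at week 3 (0.136), 0.12 for kibble weeks 0 to 9 (0.578) and COX8A -0.19 for meat weeks 0 to 9 (0.648). It turned the sign of meat weeks 3 to 6 for CPT1A (0.17), UCP2 (0.23) and COX8A (0.23), of UCP2 at week 9 (0.052), and of COX8A at week 0 (-0.12), over the fed weeks (0.072) and for the fed weeks minus week 0 (0.19). Scaling between arrays gave CPT1A -0.44 at week 3 (0.0798) and 0.32 for kibble weeks 0 to 9 (0.127), UCP2 -0.20 over the fed weeks, now called (0.0234), COX8A -0.19 for meat weeks 0 to 9 (0.0515) and 0.011 over the fed weeks. Without background correction UCP2 was called over the fed weeks (-0.19, 0.0438) and COX8A at week 6 was -0.0052. Feature Extraction signals ended the calls of COX8A on kibble (-0.18, 0.0509) and meat (-0.16, 0.12) and of UCP2 on kibble (-0.32, 0.0568) for weeks 0 to 9, with COX8A at week 6 at -0.010 and UCP2 for the fed weeks minus week 0 at -0.020. The mean over both CPT1A probes gave 0.022 for meat weeks 3 to 6.

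Without the dye term the values for weeks 0 to 9 were CPT1A 0.29 (0.166) and UCP2 -0.23 (0.243) on kibble and COX8A -0.11 on meat (0.542). Signs turned for UCP2 in the diet difference of change from week 0 to 9 (-0.062), from week 3 to 6 (-0.11) and fed weeks minus week 0 (-0.079), for COX8A over the fed weeks (0.030), fed weeks minus week 0 (0.011) and meat weeks 3 to 6 (0.025), and for CPT1A there (0.0098). A fixed slide block gave CPT1A -0.44 at week 3 (0.138) and 0.076 at week 0, COX8A -0.16 on kibble (0.105) and -0.21 on meat (0.0737) for weeks 0 to 9 and -0.044 for their difference, and UCP2 -0.058 for the diet difference of weeks 3 to 6. A scan date block gave CPT1A -0.48 at week 3 (0.0608) and 0.0094 at week 0, and COX8A -0.19 for meat weeks 0 to 9 (0.0607), -0.011 for the diet difference of that change and -0.00053 at week 6. With the arrays of the groups alone, CPT1A was -0.44 at week 3 (0.238), 0.076 at week 0, 0.16 for kibble weeks 0 to 9 (0.346) and 0.13 for meat weeks 3 to 6. There UCP2 on kibble was -0.10 for weeks 0 to 9 (0.387) and 0.047 for weeks 3 to 6, and COX8A on meat was -0.0062 for weeks 0 to 9 (0.968) and 0.11 for weeks 3 to 6, with -0.0079 for the diet difference of weeks 0 to 9.

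Same-numbered within-diet arrays correlated at -0.80 to 0.42, with 8 of 24 pairs over 0.1, against 30 of 72 pairs with different numbers. Each pair set arrays of different diets or different weeks against each other, so this cannot tell whether the replicate numbers pair dogs. With the replicate block CPT1A on kibble for weeks 0 to 9 was 0.36 (0.0512) and COX8A in the diet difference of that change -0.010, and no other call of the 3 genes changed. Without both arrays that stand apart, an alternative added after seeing the data, UCP2 on kibble was -0.33 (0.0522), COX8A on meat -0.17 (0.077) and CPT1A at week 0 0.0036.

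Leaving out single arrays gave these ranges. CPT1A ran from -0.59 to -0.39 at week 3, -0.12 to 0.091 at week 0, 0.30 to 0.45 on kibble and -0.0029 to 0.14 on meat for weeks 0 to 9. UCP2 ran from -0.25 to -0.14 over the fed weeks, -0.38 to -0.29 on kibble for weeks 0 to 9, -0.024 to 0.15 in the diet difference of weeks 3 to 6 and -0.022 to 0.12 for the fed weeks minus week 0. COX8A ran from -0.21 to -0.16 on kibble and -0.21 to -0.16 on meat for weeks 0 to 9, -0.015 to 0.051 for their difference, -0.037 to 0.051 at week 6 and -0.028 to 0.012 over the fed weeks.

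The numbers of genes and transcripts called moved with the settings, from 1077 to 4317 over the fed weeks, from 1816 to 5620 on kibble and from 0 to 2877 on meat for weeks 0 to 9, and from 0 to 2064 at week 3. The tests of a difference between the diets' changes called 0 to 2 for weeks 0 to 9, 0 to 1 for weeks 3 to 6 and 0 to 247 for the fed weeks minus week 0. All 4 probes stood well above background in every channel. The dimmer CPT1A probe read 6.35 at its lowest, and the part of low signal in its ratios was not tested.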
